A study of Homo sapiens with 8 samples.

Results

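AXIN2, LEF1, SP5, SP8, DKK1, DKK4, NKD1, RNF43, ZNRF3 and TCF7 are direct target genes of Wnt/beta-catenin signalling whose products act back on the pathway. These 10 genes were listed by name and looked up by symbol among the 14070 genes of the day 0 table and the 11644 genes of the day 2 table. All 10 were found at day 0 and 9 at day 2, where RNF43 was not analysed here, and all 9 passed the filter on low counts that left 11475 genes for testing. RNA-seq had been made from H1 cells, a human embryonic stem cell line, either with a SETD7 knockout or wild type, before (day 0) and on day 2 of an induction of hematopoietic differentiation. The groups were SETD7 knockout and wild type at day 0, with 1 library each, and SETD7 knockout and wild type at day 2, with 3 libraries each. SETD7 encodes a lysine methyltransferase of histone H3 and of other proteins, and the title of the series links it to the Wnt pathway and to the formation of lateral plate mesoderm. The labels do not say how the knockout was made or whether it was 1 clone. They also do not say that replicates came from separate cultures, and the p-values then reflect library-to-library spread alone, which may be technical.

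When a Wnt ligand binds its receptors, beta-catenin escapes a cytoplasmic destruction complex, enters the nucleus and joins transcription factors of the TCF/LEF family on their target genes. Several of those targets encode brakes on the same pathway: scaffolds that rebuild the destruction complex, secreted proteins that block the receptors, and enzymes that remove the receptors from the cell surface. In the early embryo and in differentiating stem cells the pathway is known for driving formation of the primitive streak and its mesoderm.

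At day 2 the feedback genes did not move as a block: DKK4 and SP8 rose in the knockout, LEF1 and SP5 fell, and AXIN2, DKK1, NKD1, ZNRF3 and TCF7 did not pass the test. Of the 9 genes, 2 rose, where 12.3% of all genes tested rose, and 2 fell, where 11% of all genes fell (edgeR quasi-likelihood test, Benjamini-Hochberg adjusted p under 0.05). In either direction 4 of 9 passed, against 23.3% of all genes. The median log2 fold change (knockout over wild type) was −0.018 over the 9 genes and −0.0026 over all genes tested. DKK4, with a 2.03-fold difference, was the 1 gene of the 9 past 1.5-fold. Libraries of the 2 genotypes did not overlap for the 4 genes that passed and overlapped for the other 5, while 37.7% of all genes tested had no overlap. Summed over the 9 genes, the knockout libraries held 910, 882 and 878 CPM (TMM-scaled counts relative to library size), against 902, 941 and 910 CPM in the wild-type libraries. Those sums overlapped.

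**Figure D1:**
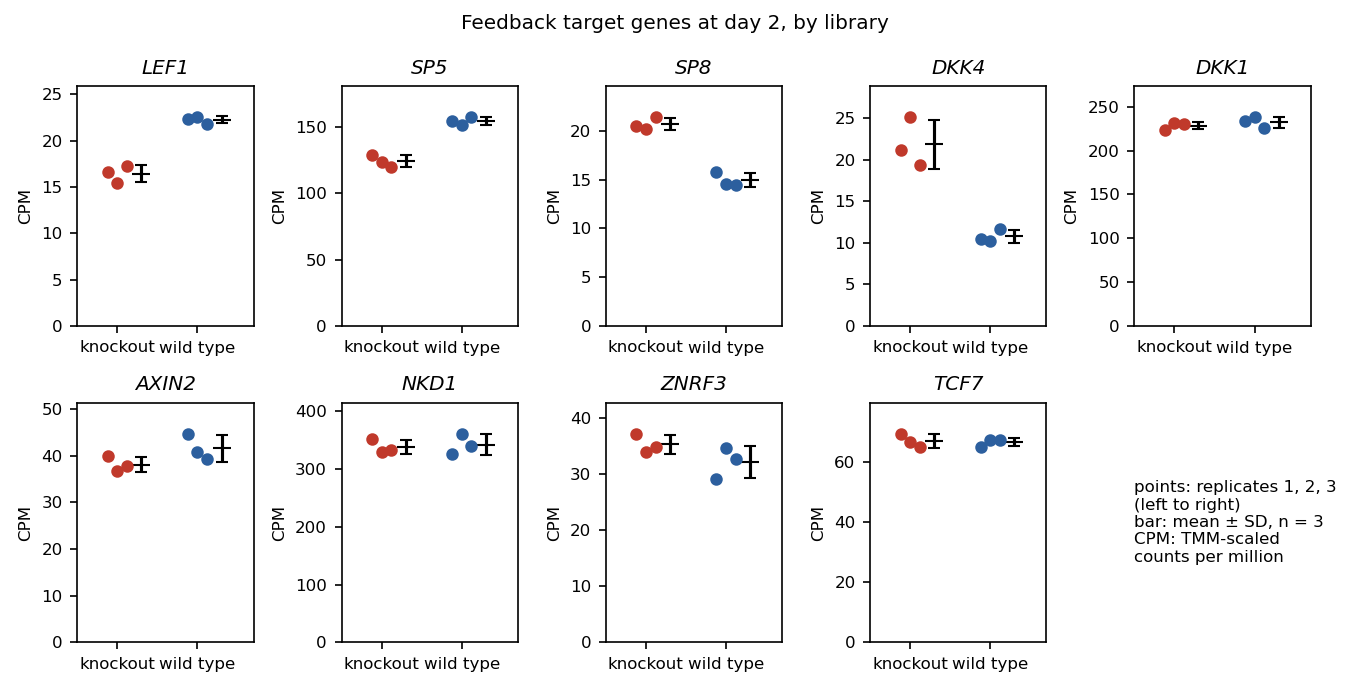
TMM-scaled CPM (vertical axes, from 0) of the 9 feedback target genes in each day 2 library, knockout in red and wild type in blue, with the mean and SD of 3 libraries. LEF1 and SP5 points lie lower in every knockout library, SP8 and DKK4 points lie higher, and the points of the other genes overlap between genotypes.

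LEF1 and TCF7 encode the DNA-binding partners of beta-catenin that are themselves induced by the pathway. LEF1 (chromosome 4, 108047545 to 108168956, minus strand, GRCh38, GENCODE release 29, as for the other genes) stood at 16.6, 15.5 and 17.2 CPM in the knockout libraries, against 22.4, 22.5 and 21.8 CPM in the wild-type libraries. Each knockout library was below each wild-type library, and the gene fell by 0.44 on the log2 scale (SE 0.0751, 95% interval −0.59 to −0.28, edgeR adjusted p 3.86e-05). It rested on 513 to 666 counts per library in the knockout and 619 to 723 in wild type. TCF7 (chromosome 5, 134114711 to 134151865, plus strand) stood at 69.4, 66.7 and 64.9 CPM in the knockout libraries, against 65.05, 67.3 and 67.3 CPM in the wild-type libraries. The genotypes overlapped and the log2 fold change was 0.011 (95% interval −0.083 to 0.10, edgeR adjusted p 0.90).

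SP5 and SP8 are related zinc finger factors. SP5 is a strongly Wnt-induced gene whose product limits the response of other Wnt targets, and SP8 is best known from limb and forebrain development. SP5 (chromosome 2, 170715351 to 170718078, plus strand) stood at 129, 124 and 120 CPM in the knockout libraries, against 155, 152 and 157 CPM in the wild-type libraries. The genotypes were apart, and SP5 fell by 0.32 on the log2 scale (SE 0.0374, 95% interval −0.39 to −0.24, edgeR adjusted p 6.04e-08). SP8 (chromosome 7, 20782283 to 20786886, minus strand) stood at 20.5, 20.2 and 21.4 CPM in the knockout libraries, against 15.8, 14.6 and 14.5 CPM in the wild-type libraries. SP8 thus rose in all 3 knockout libraries, by 0.47 on the log2 scale (SE 0.0777, 95% interval 0.31 to 0.63, edgeR adjusted p 2.16e-05).

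Start sites of the feedback genes were searched for the TCF/LEF core. Stretches are printed for SP5 (lower at day 2), SP8 (higher) and DKK1 (not passing), the 3 genes with at least 2 matches. The RefSeq promoter table (GRCh38.p14) gives windows of 300 bases, 250 before and 50 after a start, and held 8 windows for 6 of the 10 genes, SP5, SP8, DKK1, LEF1, TCF7 and RNF43. Each of 4 forms of the core was searched on both strands: CTTTGAA was found in 4.43% of all windows, CTTTGAT was found in 2.62%, CTTTGTA was found in 2.77% and CTTTGTT was found in 5.2%. At least 1 match stood in 13.8% of all 35116 windows, at least 2 in 1.58% and at least 3 in 0.179%. SP5 held 3 matches, SP8 and DKK1 held 2 each, 1 of the 2 TCF7 windows held 1, and the LEF1 and RNF43 windows held none. The stretches below run 5′ to 3′ on the strand of the gene, reach 30 bases beyond the outermost matches, and have the matches in capitals.

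SP5, chr2:170715159-170715289, plus strand: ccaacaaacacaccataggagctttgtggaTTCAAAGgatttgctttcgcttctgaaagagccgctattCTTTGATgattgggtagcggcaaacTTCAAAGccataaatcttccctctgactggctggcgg

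SP8, chr7:20786901-20787114, minus strand: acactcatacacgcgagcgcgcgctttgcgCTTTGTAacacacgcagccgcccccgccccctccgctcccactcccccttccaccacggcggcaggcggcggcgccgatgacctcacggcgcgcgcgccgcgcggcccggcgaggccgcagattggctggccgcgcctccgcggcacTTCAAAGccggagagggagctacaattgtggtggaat

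DKK1, chr10:52314156-52314241, plus strand: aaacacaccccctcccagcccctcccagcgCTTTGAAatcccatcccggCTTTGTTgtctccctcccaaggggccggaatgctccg

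The form TTCAAAG is CTTTGAA read on the other strand. In SP5 the matches began 148, 109 and 84 bases before the start, in SP8 198 and 51 bases before it, and in DKK1 95 and 76 bases before it. A gene that fell, one that rose and one that did not pass thus all held at least 2 matches. LEF1, which fell, held none in its window (108166252 to 108166551, minus strand). That window lies inside the gene, which begins further upstream at 108168956, and the sequence around that outer start was not searched. Whether LEF1 has a match there is therefore not known. Both TCF7 windows (134115363 to 134115662 and 134123368 to 134123667) also lie inside their gene, which begins at 134114711. The match stands in the second of them, and the sequence around the outer start of TCF7 was not searched. The RNF43 window from 58402672 to 58402971 is internal as well. A match is a description of these letters, and no binding was measured.

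DKK1 and DKK4 encode secreted antagonists that bind the LRP5 and LRP6 co-receptors and so stop Wnt signals outside the cell. DKK4 stood at 21.1, 25.1 and 19.3 CPM in the knockout libraries, against 10.5, 10.2 and 11.6 CPM in the wild-type libraries. Every knockout library exceeded every wild-type library, with a log2 fold change of 1.02 (SE 0.0925, 95% interval 0.84 to 1.21, edgeR adjusted p 3.97e-10). It ranked 20th from the top of the 11475 genes tested, and 0.288% of them had a larger change in either direction. DKK4 had the highest coefficient of variation of the 9 genes in the knockout, 13.5%, and one of 7.19% in wild type, where ZNRF3 was higher at 8.73%. The gene rested on 575 to 877 counts in the knockout and 289 to 351 in wild type. DKK1 (chromosome 10, 52314296 to 52318042, plus strand) stood at 224, 231 and 230.1 CPM in the knockout libraries, against 233, 238 and 226 CPM in the wild-type libraries. These values overlapped, and the 95% interval of the log2 fold change of −0.025 ran from −0.092 to 0.041 (edgeR adjusted p 0.629).

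AXIN2 and NKD1 encode cytoplasmic brakes, AXIN2 as the induced scaffold of the destruction complex and NKD1 as a binding partner of Dishevelled. AXIN2, the most widely used readout of the pathway, (chromosome 17, 65528563 to 65561647, minus strand) stood at 39.99, 36.7 and 37.7 CPM in the knockout libraries, against 44.7, 40.8 and 39.2 CPM in the wild-type libraries. The genotypes overlapped, and the log2 fold change of −0.12 (95% interval −0.24 to −0.0020) had an unadjusted p of 0.0464 and an edgeR adjusted p of 0.137. Without wild-type replicate 1, the highest library, it was −0.069 (edgeR adjusted p 0.513). In GENCODE release 29, 25.2% of the exonic bases of AXIN2 also belong to AC004805.1, another gene model on the same strand, and how such reads were counted is not given in the sources used here. NKD1 (chromosome 16, 50548330 to 50649249, plus strand) stood at 352, 329 and 333 CPM in the knockout libraries, against 326, 361 and 339.9 CPM in the wild-type libraries. It overlapped between genotypes, with a log2 fold change of −0.018 (95% interval −0.090 to 0.054, edgeR adjusted p 0.764).

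ZNRF3 and RNF43 encode membrane ubiquitin ligases that remove Frizzled receptors from the cell surface. ZNRF3 (chromosome 22, 28883592 to 29057487, plus strand) stood at 37.1, 33.8 and 34.8 CPM in the knockout libraries, against 29.1, 34.6 and 32.6 CPM in the wild-type libraries. Wild-type replicate 2 lay within the knockout values, and the log2 fold change of 0.13 (95% interval 0.0031 to 0.27) had an unadjusted p of 0.0452 and an edgeR adjusted p of 0.134. Without wild-type replicate 1, the lowest library, it was 0.069 (edgeR adjusted p 0.552). RNF43 (chromosome 17, 58352500 to 58417595, minus strand) has values at day 0 alone. Of its exonic bases 57.6% also belong to AC004687.2 and 1.91% to SUPT4H1, both on the same strand, and 20.3% to TSPOAP1-AS1 on the opposite strand, so its FPKM are uncertain.

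The 95% intervals of the 5 genes that did not pass reached at most 0.27 in size on the log2 scale. They bound the differences and do not show that the genotypes were equal. Among the genes tested at day 2, overlapping exons on the opposite strand concern LEF1 (LEF1-AS1, 5.2% of its exonic bases), DKK1 (PRKG1-AS1, 9.61%), TCF7 (SKP1, 2.09%) and NKD1 (AC007608.1, 0.385%), and the strand setting of the counting is not given in the sources used here. SP5, SP8, DKK4 and ZNRF3 share no exonic base with another annotated gene.

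For 3 pairs of related genes the ratio was also taken inside each library, where library scaling cancels apart from the added 0.5 CPM. These ratios restate the day 2 values of the single genes and are no separate support for them. LEF1 over TCF7 had log2 ratios (of CPM + 0.5) of −2.03, −2.07 and −1.88 in the knockout libraries, against −1.52, −1.56 and −1.60 in the wild-type libraries, a difference of −0.44. SP5 over SP8 had 2.62, 2.58 and 2.46 in the knockout libraries, against 3.26, 3.34 and 3.40 in the wild-type libraries, a difference of −0.78. DKK1 over DKK4 had 3.37, 3.18 and 3.54 in the knockout libraries, against 4.42, 4.48 and 4.22 in the wild-type libraries, a difference of −1.01. In each pair all knockout ratios were below all wild-type ratios. With 3 libraries against 3 the exact 2-sided permutation test cannot give less than 0.1, and each pair gave p = 0.1 (0.1 adjusted over the 3 pairs). The pair of RNF43 and ZNRF3 was not analysed here at day 2.

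**Figure D2:**
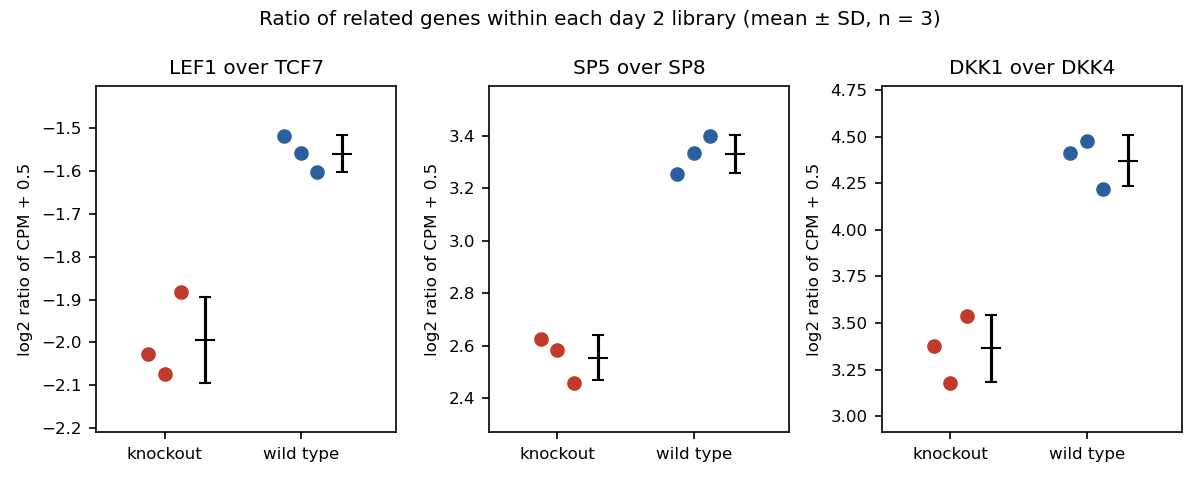
Log2 ratio of CPM + 0.5 between related genes within each day 2 library (vertical axes, not starting at 0), knockout in red and wild type in blue, with mean and SD of 3 libraries. In each of the 3 panels the knockout points lie below the wild-type points, by 0.44, 0.78 and 1.01 on average.

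To compare levels between genes, day 2 CPM were divided by the length in kilobases of the merged exons of each gene in GENCODE release 29. DKK1 was highest, at 104 ± 1.80 CPM per kilobase in the knockout and 105 ± 2.77 in wild type (SD, n = 3 each), followed by SP5 at 60.2 ± 2.20 in the knockout and 75.1 ± 1.36 in wild type. In the knockout the order went on with DKK4 (24.4 ± 3.31), NKD1 (19.4 ± 0.709), AXIN2 (7.30 ± 0.324), TCF7 (6.66 ± 0.223), SP8 (5.57 ± 0.166), ZNRF3 (5.06 ± 0.241) and LEF1 (3.07 ± 0.169), and no neighbours in it overlapped between libraries. In wild type it went on with NKD1 (19.6 ± 1.02), DKK4 (12.04 ± 0.866), AXIN2 (7.96 ± 0.540), TCF7 (6.61 ± 0.127), ZNRF3 (4.61 ± 0.402), LEF1 (4.15 ± 0.0695) and SP8 (4.02 ± 0.195), and the libraries of ZNRF3, LEF1 and SP8 overlapped between neighbours. DKK4 therefore stood above NKD1 in the knockout and below it in wild type, and SP8 stood above ZNRF3 and LEF1 in the knockout and last in wild type. The order depends on the length used: per kilobase of the principal transcript, TCF7 ranked above NKD1 and DKK4 in wild type, and both statements on SP8 change. On that scale ZNRF3 (12.3) was above SP8 (12.1) in the knockout, and in wild type SP8 (8.72) was above LEF1 (7.25), while DKK4 kept its place against NKD1 in both genotypes.

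At day 0 most of these genes were at low levels. The values, in FPKM (fragments scaled by transcript length and library size), come from 1 library per genotype, so differences have no replicate check. AXIN2 was highest, at 7.97 FPKM in the knockout library and 8.92 in the wild-type library. ZNRF3 followed with 4.10 FPKM in the knockout and 3.89 in wild type. SP8 had 1.80 FPKM in the knockout and 3.17 in wild type, TCF7 had 1.96 in the knockout and 2.91 in wild type, and NKD1 had 1.03 in the knockout and 1.65 in wild type. The other 5 genes were below 1 FPKM in both libraries. RNF43 had 0.606 FPKM in the knockout and 0.998 in wild type, DKK1 had 0.315 in the knockout and 0.0846 in wild type, and SP5 had 0.145 in the knockout and 0.124 in wild type. LEF1 was listed at 0 in the knockout and had 0.323 FPKM in wild type, and DKK4 had 0.0556 FPKM in the knockout and was listed at 0 in wild type.

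On the log2 scale of FPKM + 1, which understates the change of low genes, the ratio of knockout over wild type was −0.58 for SP8, −0.40 for TCF7, −0.39 for NKD1, −0.15 for AXIN2 and 0.06 for ZNRF3. Of these 5 genes at 1 FPKM or more, 4 were lower and 1 was higher in the knockout, and over the 13284 genes at that level 53.8% were lower and the median was −0.03. None of the 5 was past 1.5-fold in either direction, where 4.81% of all genes were higher and 8.77% lower by that much. SP8 lay just short of that limit, and 13.96% of genes had a larger ratio in size. For SP8 and NKD1 this depends on the added 1: as plain FPKM, the knockout value was 0.565 times the wild-type value for SP8 and 0.621 times for NKD1, both past 1.5-fold. The share of all genes past 1.5-fold as plain FPKM was not computed. With 0.1 FPKM added in place of 1, 888 of the 13284 genes were higher and 1664 lower by that much. On the scale of FPKM + 1, DKK1 (0.28), LEF1 (−0.40) and RNF43 (−0.31) are ratios of values under 1 FPKM.

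**Figure D3:**
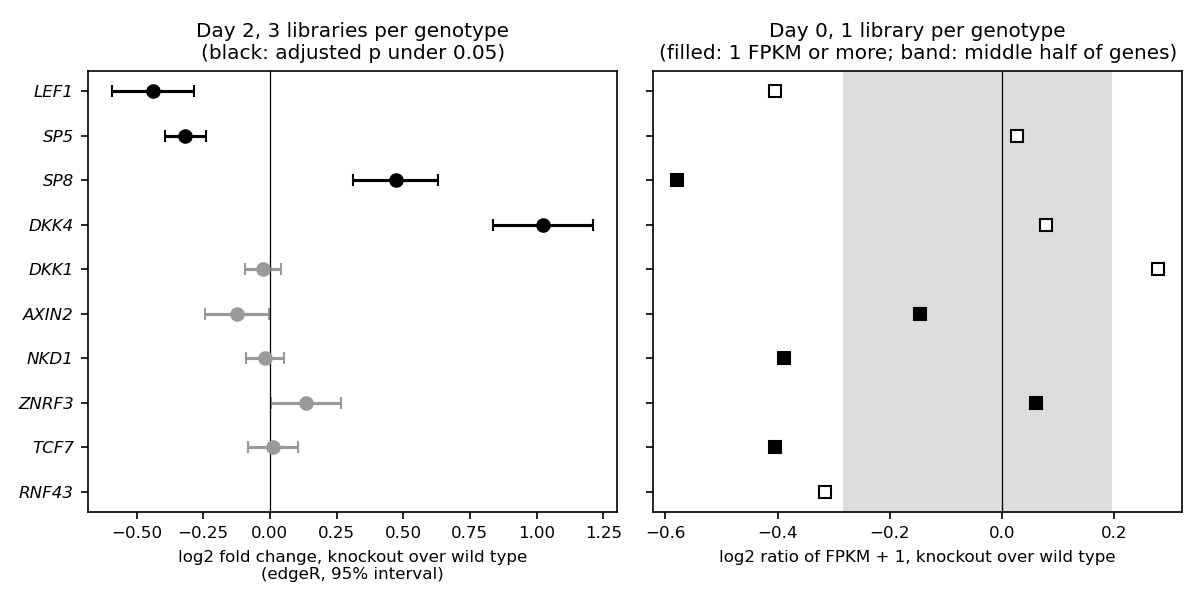
Left, log2 fold change of knockout over wild type at day 2 with its 95% interval (edgeR, 3 libraries per genotype, black where the adjusted p is under 0.05). Right, log2 ratio of FPKM + 1 at day 0 (1 library per genotype, open squares below 1 FPKM, grey band from the 25th to the 75th percentile of genes), in which SP8 lies at −0.58, against 0.47 at day 2.

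Counts and FPKM cannot be subtracted across days, so each gene was placed by its percentile within its own day, per length, among 11155 genes found in both tables. These percentiles are descriptions of tables made in different units, and those of day 2 depend on the merged exon length used. DKK1 went from percentile 1.44 at day 0 to 97.1 at day 2 in the knockout, and 0.645 to 96.9 in wild type. SP5 stood at 0.95 on day 0 and 94.4 on day 2 in the knockout, and at 0.807 and 95.4 in wild type. DKK4 stood at 0.538 and then 84.2 in the knockout, and at 0.139 and then 67.5 in wild type. NKD1 stood at 3.68 and then 79.8 in the knockout, and at 5.73 and then 79.8 in wild type. LEF1 stood at 0.134 and then 29.6 in the knockout, and at 1.43 and then 37.1 in wild type. AXIN2, already mid-ranked at day 0, moved least: 41.2 and then 52.6 in the knockout, and 43.9 and then 55.02 in wild type. TCF7, SP8 and ZNRF3 began between percentiles 7.53 and 21.1 in the knockout and between 12.5 and 18.1 in wild type, and lay between 41.8 and 49.9 at day 2 in the knockout and between 36.3 and 49.6 in wild type. All 9 genes thus ranked higher at day 2 than at day 0 in both genotypes.

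**Figure D4:**
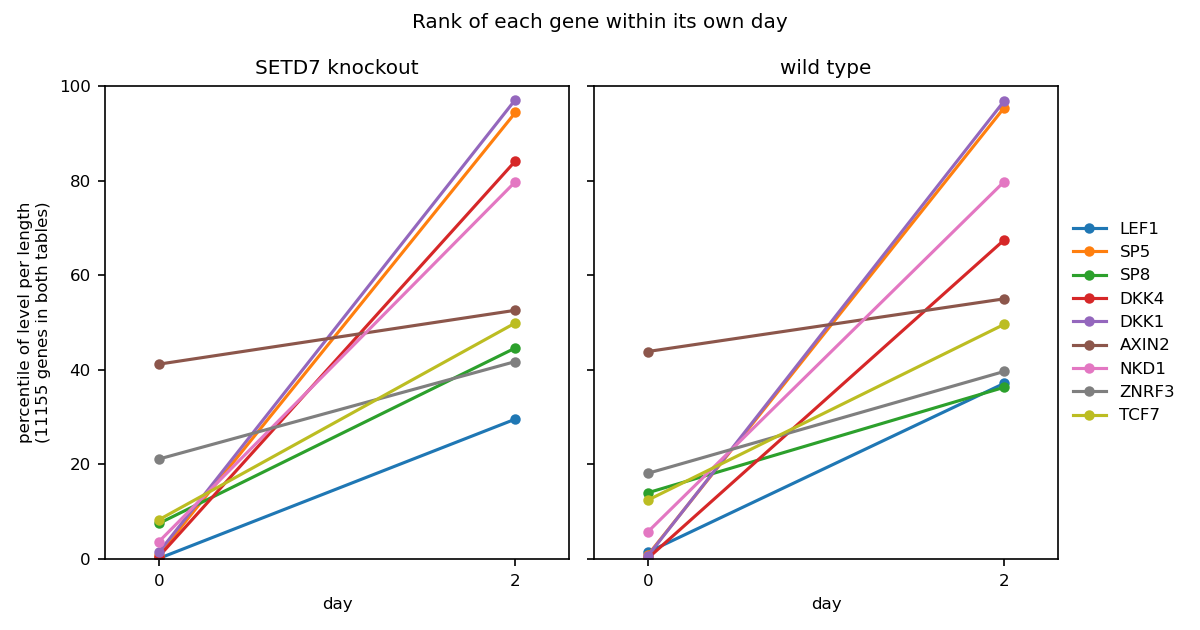
Percentile of each gene's level per length among the 11155 genes in both tables (vertical axis) at day 0 and day 2 (horizontal axis), in the knockout (left) and wild type (right). DKK1 and SP5 climb from the bottom to above percentile 94 in both panels, and AXIN2 stays between 41.2 and 55.02.

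The targeted gene and the state of the cells were checked with ranges. SETD7 mRNA was at 28.9 to 33.7 CPM in the knockout libraries, against 54.8 to 56.2 CPM in the wild-type libraries at day 2, and at 1.48 FPKM in the knockout and 3.53 FPKM in wild type at day 0. The labels do not say which part of the gene was altered. The day 2 totals ran from 29647943 to 39553614 counts in the knockout and from 27880068 to 32230627 in wild type, and the day 0 depth is unknown. At day 0 all 10 pluripotency markers were at 1 FPKM or more and 2 of 9 primitive streak markers in the table were. At day 2 the streak genes EOMES (1082 CPM in the knockout, 1099 in wild type) and MIXL1 (1568 in the knockout, 1467 in wild type) were abundant. MIXL1 and GSC rose (log2 fold changes 0.095 and 0.25), EOMES did not pass, and EVX1 (−0.81), T (−0.26) and FGF8 (−0.25) fell. The streak gene T was at 41.5 CPM in the knockout and 49.5 in wild type (edgeR adjusted p 0.000724). Summed amnion and trophoblast markers were at 66.8 to 68.9 CPM in the knockout and 78.8 to 79.5 CPM in wild type (0 of 5 rose, 3 fell), and summed definitive endoderm markers, most of them CER1, at 9203 to 9367 CPM in the knockout and 8377 to 8481 CPM in wild type (1 of 6 rose, 2 fell). Lateral plate markers summed to 2728 to 2791 CPM in the knockout and 2692 to 2776 CPM in wild type (3 of 10 rose, 3 fell), primitive streak markers to 2959 to 3032 CPM in the knockout and 2908 to 2958 CPM in wild type (2 of 9 rose, 3 fell), and pluripotency markers to 3116 to 3135 CPM in the knockout and 2976 to 2999 CPM in wild type (2 of 9 rose, 1 fell). The streak sum was mostly MIXL1 and EOMES, and the pluripotency sum was mostly LIN28A, TDGF1 and DNMT3B. Of the pluripotency markers, DNMT3B (0.17) and TDGF1 (0.13) rose on the log2 scale. NANOG fell (−0.57, to 5.14 CPM in the knockout, against 7.63 in wild type, edgeR adjusted p 0.00127). Of 2 neural markers, 1 rose. Over all genes tested 12.3% rose and 11% fell, and GATA6 and ISL1 each stand in 2 of these marker lists. At day 0 (FPKM + 1, 1 library per genotype), 2 of 10 pluripotency markers were higher by 1.5-fold in the knockout and 0 lower. Of markers at 1 FPKM or more, 1 of 2 endoderm markers was higher. Lower were 1 of 2 streak, 1 of 3 lateral plate, 1 of 3 neural and 2 of 3 amnion and trophoblast markers. Over all genes at that level 4.81% were higher and 8.77% lower. The part of the marker differences in the feedback genes' results was not tested. In bulk RNA, fewer cells of a type and less RNA per cell cannot be told apart.

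The rest of the pathway at day 2 also held genes that rose and genes that fell. Of 101 other Wnt pathway genes tested, 20 rose and 17 fell, where 12.3% and 11% of all genes did. LGR5, FZD7 and NOTUM stand in more than 1 list. EVX1, T, FGF8, MIXL1, TBX6, BMP4, WNT3, CER1 and SOX17 also stand in the marker lists above, so those counts partly restate the same genes. EVX1, T and FGF8 are counted both as falling streak markers and as falling targets. Among 26 other target genes of beta-catenin, 8 rose and 7 fell, with a median log2 fold change of 0.0053. The homeobox gene EVX1 fell to 23.3 CPM in the knockout, against 40.9 in wild type (−0.81, edgeR adjusted p 5.45e-12), and FST, an activin antagonist (−0.23), and MSX2, a homeobox gene (−0.30), also fell. JUN rose to 71.7 CPM in the knockout, against 49.7 in wild type (0.53, edgeR adjusted p 1.83e-10), and the cyclin gene CCND1 (0.18) and LGR5 (0.16), a receptor for R-spondins, also rose. MYC did not pass (−0.011, edgeR adjusted p 0.887).

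Among 18 receptors and R-spondin genes 5 rose and none fell, with a median of 0.073. FZD2, a Frizzled receptor, was at 72.2 CPM in the knockout and 48.4 in wild type (0.58, edgeR adjusted p 4.95e-11), and RSPO3, an R-spondin that shields Frizzled receptors from ZNRF3 and RNF43, was at 36.5 CPM in the knockout and 26.8 in wild type (0.45, edgeR adjusted p 6.35e-06). Among 7 genes listed as other secreted antagonists 3 rose and none fell, with a median of 0.12. Those that rose were SFRP2 (0.35), DKK3 (0.32) and the abundant CER1 (0.17), which binds Nodal and BMP ligands. Of 7 ligand and export genes, WLS, which carries Wnt proteins to the surface, rose (0.088) and WNT5B fell (−0.82, to 6.15 CPM in the knockout, against 10.8 in wild type).

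Among 19 genes of beta-catenin and its destruction complex 1 rose and 3 fell, with a median of −0.033. CTNNB1, which encodes beta-catenin, fell to 495, 500.05 and 501 CPM in the knockout libraries, against 557, 573 and 561 CPM in the wild-type libraries (−0.18, 95% interval −0.24 to −0.12, edgeR adjusted p 2.89e-05). At day 0 it was at 89.97 FPKM in the knockout and 78.2 FPKM in wild type. The kinase gene GSK3B (−0.19) and the Dishevelled gene DVL3 (−0.12) fell as well, and AMER1, an APC-binding protein, rose (0.16). Among 27 listed nuclear partners and related factors 3 rose and 6 fell, with a median of −0.029. SOX17, an endoderm factor that can bind beta-catenin (−0.56), the coactivator CREBBP (−0.20) and the SP family gene SP6 (−0.36) fell, while the kinase HIPK2 (0.21), the TCF family repressor TCF7L1 (0.31) and the SP family gene SP4 (0.21) rose. SP4 and SP6 belong to the SP family and are not known as partners of beta-catenin.

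**Figure D5:**
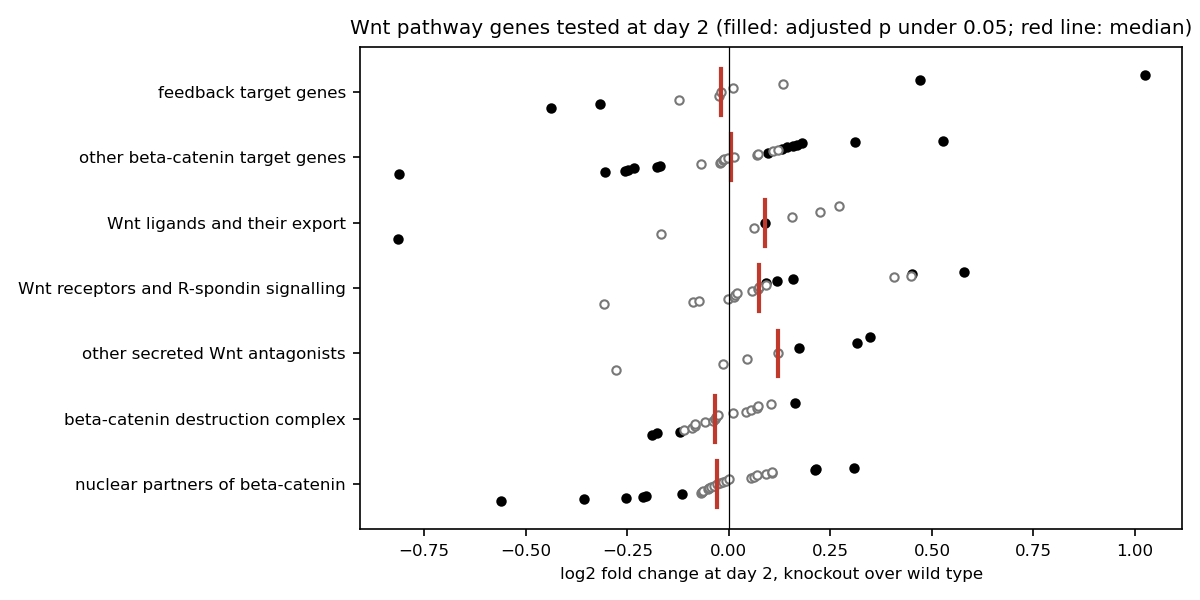
Log2 fold change of knockout over wild type at day 2 (horizontal axis) for each tested gene of the feedback set and of 6 other Wnt lists, filled where the edgeR adjusted p is under 0.05, with the list median as a red line. Receptors and other secreted antagonists hold filled points on the positive side alone, with medians of 0.073 and 0.12.

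At day 0 the same lists gave no call, with 1 library per genotype, and their counts stand beside 4.81% higher and 8.77% lower by 1.5-fold among all genes. Of 17 other target genes at 1 FPKM or more, 2 were higher and 6 lower by 1.5-fold, MYC at 2.45 FPKM in the knockout and 14.99 in wild type and FST at 3.41 in the knockout and 7.03 in wild type. Of 8 genes listed as other secreted antagonists 1 was higher and 3 lower. SFRP1, among the lower ones, was at 79.0 FPKM in the knockout and 176 in wild type. DKKL1, also lower, was at 1.47 in the knockout and 5.18 in wild type. Of 18 receptors and R-spondin genes 2 were higher and 3 lower, with FZD8 at 0.952 FPKM in the knockout and 2.13 in wild type and LGR4 at 17.1 in the knockout and 27.04 in wild type. Of 4 ligand and export genes 1 was lower, WNT11, at 0.171 FPKM in the knockout and 1.04 in wild type, and WLS was at 1.63 in the knockout and 2.56 in wild type. Of 20 destruction complex genes 1 was higher and 2 lower, with CSNK1G1 at 2.75 FPKM in the knockout and 5.98 in wild type and APC at 4.70 in the knockout and 2.36 in wild type. Of 25 listed nuclear partners and related factors 1 was higher, TLE1, a corepressor, at 34.2 FPKM in the knockout and 22.4 in wild type. TLE4 was at 10.6 in the knockout and 15.8 in wild type.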

How the data were processed

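The submitters' processing notes list HISAT2, StringTie and GRCh38 (hg38), with no version or role. How reads were assigned to genes, with which annotation and strand setting, is not stated there. The deposited day 2 values, per the file headers, are counts per gene, whole and taken as not normalized, and the deposited day 0 values are FPKM. No blank or summary entries were among the counts.

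Day 2 counts were scaled by TMM, filtered with filterByExpr and fitted across all genes with edgeR 4.0.16 in R 4.3.3 (robust quasi-likelihood F test, genotype only, Benjamini-Hochberg). An SE is the log2 fold change divided by the root of F. The count steps were tested on simulated data. Day 0 ratios used FPKM + 1, over genes reaching 1 FPKM in at least 1 of both libraries. GENCODE release 29 gave exon lengths and overlaps. Alternatives were DESeq2 1.42.0 and its size factors, upper-quartile scaling, other filters, limma-voom (limma 3.58.1), the replicate number as a block, leaving out each library, and other pseudocounts, filters and centring. GC and length offsets and a 1.5-fold minimum were added after seeing the data.

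Named were the feedback genes, SETD7, CTNNB1, and of each Wnt list up to 3 passing genes per direction with the smallest p (day 2) and up to 2 with the largest ratio (day 0). MYC at day 2 and the marker genes named in the check of cell state were chosen after their values were seen. Members, lists and the rule were chosen with earlier results of these data known. Tables, permutation tests and plots were made in Python 3.11.15 (scipy 1.17.1, matplotlib 3.10.9, numpy 2.4.6, pandas 2.3.3).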

Additional observations from a re-analysis of the deposited data

Results flagged for a closer look

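SP8 differed in direction between the days: its log2 ratio of knockout over wild type was −0.58 at day 0 (1 library per genotype) and its log2 fold change was 0.47 at day 2, where all 3 knockout libraries lay above all 3 wild-type libraries. The difference between the days was not tested, since day 0 has no replicates and another unit.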

How the results depend on the processing

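With 3 libraries per genotype, LEF1, SP5, SP8 and DKK4 kept their direction and their side of the threshold under each of 14 refits (2 other scalings, 2 other filters, DESeq2, limma-voom, the replicate block, GC and length offsets, 6 left-out libraries), with log2 fold changes of −0.47 to −0.40, −0.34 to −0.29, 0.45 to 0.51 and 0.91 to 1.10. AXIN2, with adjusted p of 0.0701 to 0.513, and ZNRF3, with 0.0799 to 0.552, passed in none; leaving out 1 library gave log2 fold changes of −0.16 to −0.069 and 0.069 to 0.19, both smallest in size without wild-type replicate 1. With GC and length trends removed NKD1 fell (−0.069, adjusted p 0.0478, within a range of 0.0478 to 0.998), while DKK1 (0.023) and TCF7 (−0.025) turned in sign without passing. Leaving out 1 library gave NKD1 −0.052 to 0.023, positive without wild-type replicate 2, and TCF7 −0.013 to 0.033, negative without knockout replicate 1 (−0.013) or wild-type replicate 1 (−0.0049), none passing; the cause was not tested. With the replicate block 2 of the 9 genes rose and 2 fell, and over all genes 1205 rose and 1005 fell, against 1406 and 1262 without it, and of the other Wnt genes 17 rose and 16 fell, against 20 and 17 (rising other targets 7 against 8, receptors 4 against 5, ligand and export genes 0 against 1, the last being WLS, and falling destruction complex genes 2 against 3); same-numbered libraries had correlations of deviations of −0.0728, −0.0721 and −0.0373, so the numbers were not taken as pairs. Upper-quartile scaling gave 1605 rising and 1010 falling genes. A 1.5-fold minimum left 1 feedback gene higher and 0 lower, 0 and 2 of the other Wnt genes, and 152 and 47 of all genes. With 5 CPM added, the pair differences shrank to −0.36 (LEF1, TCF7), −0.67 (SP5, SP8) and −0.79 (DKK1, DKK4). At day 0 a pseudocount of 0.1 FPKM put 2 feedback genes, SP8 and NKD1, past 1.5-fold lower, with 888 of all genes higher and 1664 lower against 639 and 1165, one of 5 FPKM left 270 higher and 346 lower genes, and a minimum of 5 FPKM left 757 lower genes.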
